A study of Mus musculus with 10 samples.

Results

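The 8 genes described here encode the monocyte chemoattractant proteins and eotaxins of the CC chemokine family with the receptors through which most of them recruit monocytes and eosinophils. The ligands are *Ccl2*, *Ccl7*, *Ccl8*, *Ccl12*, *Ccl11* and *Ccl24*, and the receptors are *Ccr2* and *Ccr3*. They were selected by gene symbol for their known role, and all 8 were found among the 24454 rows of the count table. RNA was sequenced from full-thickness, nontumoral back skin of C57BL/6 mice, with 5 libraries from wild-type (WT) mice and 5 from *Zfp36*ΔARE mice. *Zfp36*ΔARE animals carry a knockin deletion of an AU-rich instability element (ARE) in the 3′-UTR of *Zfp36* itself, in every cell of the body, so that tristetraprolin (TTP), the mRNA-decay protein encoded by *Zfp36*, is made in larger amounts under its own promoter. WT littermates served as controls. Mice of both genotypes were 7 weeks old at the start, received a single dose of 400 nmol DMBA, a mutagen that initiates skin tumors, and then 10 nmol TPA, an inflammatory phorbol ester that promotes them, at repeated applications for 20 weeks. No library came from untreated skin, so each value describes chronically treated tissue and the comparison is between genotypes only.

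Chemokines are small secreted proteins that set up gradients along which leukocytes migrate, and CC chemokines are those whose first cysteines are adjacent. CCL2, CCL7 and CCL12 act on CCR2 and draw inflammatory monocytes from bone marrow and blood into tissue, where these become macrophages and dendritic cells. CCL11 and CCL24 act on CCR3, which is carried mainly by eosinophils, while mouse CCL8 is best known for acting on CCR8. In skin the ligands are made by macrophages, fibroblasts, endothelial cells and keratinocytes. Several chemokine mRNAs are short-lived because AU-rich elements in their 3′-UTRs, which hold the pentamer ATTTA, are bound by TTP.

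For that reason the pentamers in the annotated 3′-UTRs are shown first. In the GRCm38 genome (mm10, the build of the deposited files), *Ccl2*, *Ccl7*, *Ccl11*, *Ccl12* and *Ccl8* follow each other on chromosome 11 between 82035571 and 82116799, all on the plus strand and with 3 exons each. *Ccl24* lies on chromosome 5 (135569937 to 135573049, minus strand, 3 exons). *Ccr3* (124021972 to 124031689, 2 exons) and *Ccr2* (124102183 to 124108550, 3 exons) are neighbours on the plus strand of chromosome 9. Each 3′-UTR lies within the last exon. Reading the gene strand of GENCODE transcripts without mismatches, *Ccl12* and *Ccl11* each hold 5 pentamers, in 167 and 644 bases of 3′-UTR, *Ccl7* holds 2 in 435 bases and *Ccl2* holds 1 in 275. *Ccr2* holds 5 in 1744 bases and *Ccr3* 2 in 1980. *Ccl8* (165 bases) and *Ccl24* (858 bases) hold 0. Of the 14301 tested genes with an annotated 3′-UTR, 65.9% hold at least 1 pentamer, at a mean of 1.81 per kb. *Ccl12* stands out at 29.9 per kb, and as many as 5 are found in 0.137% of the 729 tested 3′-UTRs whose length is within 20% of its own. Each such set includes the member itself, and for *Ccl12* its own entry alone makes up that share. For *Ccl11* that share is 2.63% of 1595. It is 17.8% for *Ccl7*, 35.4% for *Ccl2*, 23.9% for *Ccr2* and 74.4% for *Ccr3*. The longer element TTATTTATT, which contains the pentamer, is held by 7.15% of tested 3′-UTRs and by 0 of the 8. By comparison, *Cxcl2*, which the paper names as a known TTP target, holds 11 pentamers and 4 longer elements in 734 bases. A match of letters is not a measured binding site. The following stretches of 3′-UTR, 5′ to 3′ on the gene strand, hold pentamers of the 4 ligands that have any, chosen for the link to TTP, with ATTTA in capitals.
*Ccl12*, bases 92 to 121 of the 3′-UTR, chr11:82103325-82103354: ATTTAaacaaacttgcttaaataatATTTA
*Ccl11*, bases 366 to 395, chr11:82062677-82062706: taatATTTAaagacatgttacATTTAagaa
*Ccl7*, bases 164 to 193, chr11:82047254-82047283: tattaatatttttATTTAattagccatgta
*Ccl2*, bases 27 to 56, chr11:82037205-82037234: taatattaaacttATTTAacttattgatgt

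Libraries held between 19595035 and 36419573 counts. A normalized count below is a count scaled by edgeR's TMM factors to the mean effective library size, and genotypes were compared by quasi-likelihood F-tests in edgeR with p-values adjusted by Benjamini-Hochberg over 15543 genes that passed a filter on low counts. *Zfp36*, the altered gene, was at 1824 to 2496 normalized counts in WT and 4196 to 6134 in *Zfp36*ΔARE libraries, in the direction of the labels (log2 fold change 1.33, standard error 0.12, adjusted p = 0.0019). Keratinocyte genes that define skin, *Krt5*, *Krt14* and *Krt10*, were abundant in every library. Libraries stood apart in other respects. Y-linked transcripts were present in *Zfp36*ΔARE replicates 2 to 5 (3349 to 4262 summed counts of 4 genes) and were at most 1 count in *Zfp36*ΔARE replicate 1 and in the 5 WT libraries, so differences by sex and by genotype cannot be told apart except through that single library. WT replicates 1 and 3 had the lowest hair shaft scores (5.33 and 2.57, mean log2(CPM + 1) of 10 keratins, against 7.91 to 8.32 in the other WT and 9.10 to 10.43 in *Zfp36*ΔARE libraries). The labels do not say outright that each library is a separate mouse, so p-values measure the spread between libraries.

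Both receptors and 4 of the 6 ligands were lower in *Zfp36*ΔARE skin at an adjusted p below 0.05, and none of the 8 was higher. *Ccr2*, *Ccr3*, *Ccl11* and *Ccl12* also passed a fold change of 2, the threshold of the study, while *Ccl24* and *Ccl2* fell by less and *Ccl7* and *Ccl8* did not pass. Of all tested genes, 19.1% were lower at an adjusted p below 0.05 (34.3% in either direction), 6.64% were lower by more than 2-fold (8.31% called in either direction), and the median log2 fold change was 0.0076 against -0.97 for the 8 genes. In bulk skin, fewer cells of a type and less RNA per cell cannot be told apart. The calls depended on which libraries were compared. With WT replicates 1 and 3 left out, 2 of the 8 (*Ccr2* and *Ccr3*) passed both thresholds and 3 passed the adjusted p. Over all tested genes, those called went from 1292 to 526 there, and those passing the adjusted p from 5335 to 2504. With the hair shaft score as a covariate 0 of the 8 passed (edgeR, 3 at an unadjusted p below 0.05), where DESeq2 and limma-voom without the covariate called 4 and 3. Of all 15543 tested genes, 15 were called with that covariate and 32 passed the adjusted p. Log2 fold changes with that covariate were -1.33 for *Ccr2*, -0.81 for *Ccr3*, -0.78 for *Ccl12*, -0.62 for *Ccl11*, -0.42 for *Ccl2*, -0.26 for *Ccl24*, -0.15 for *Ccl8* and 0.29 for *Ccl7*.

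**Figure D1:**
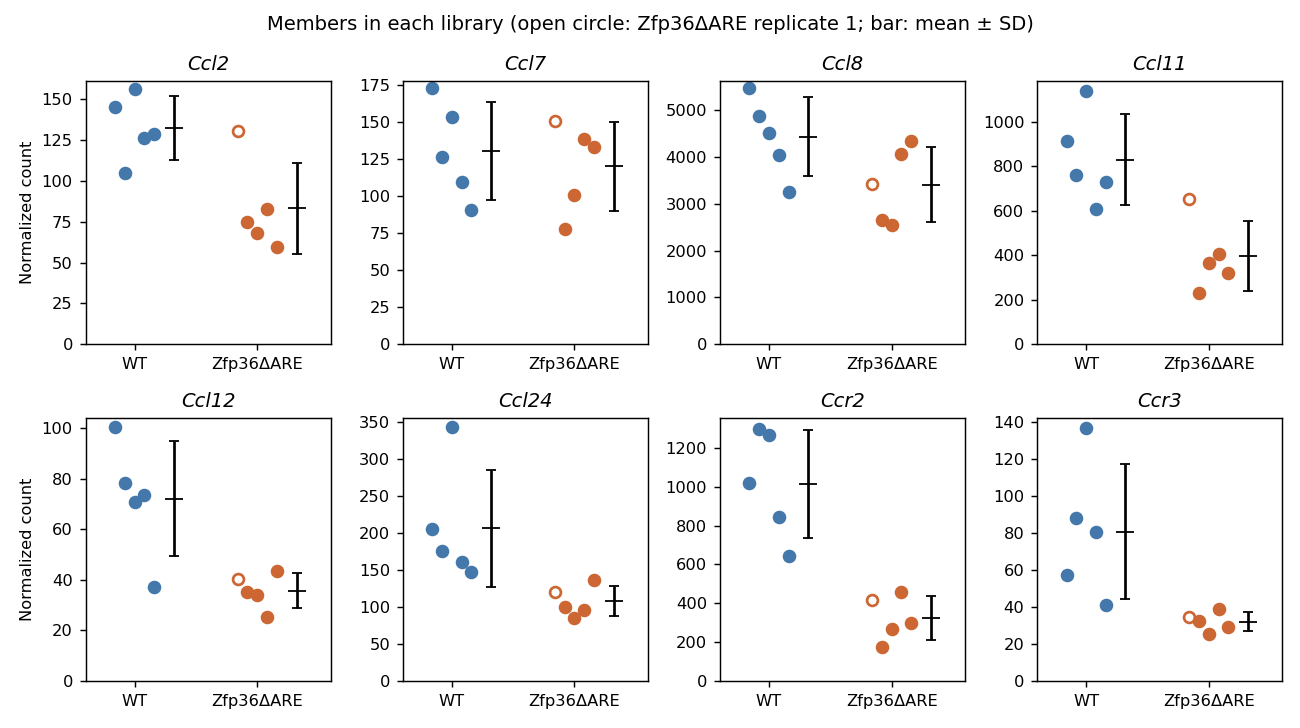
Normalized count (vertical axes, each starting at 0) of the 8 genes in the 5 WT and 5 *Zfp36*ΔARE libraries, 1 point per library, with the mean and SD as bars. The groups are fully apart in *Ccl24*, *Ccr2* and *Ccr3*, and the open circle, *Zfp36*ΔARE replicate 1, lies among the WT points in *Ccl2* (130 normalized counts) and *Ccl11* (652).

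Among the MCP ligands, *Ccl2* (Entrez 20296) encodes MCP-1, the principal CCR2 ligand for monocyte recruitment. Its normalized counts were 146, 105, 156, 126 and 129 in WT replicates 1 to 5 and 130, 75.1, 68.1, 82.8 and 59.3 in *Zfp36*ΔARE replicates 1 to 5. *Zfp36*ΔARE replicates 2 to 5 were below each WT library, and replicate 1 was inside the WT range. The means were 132 ± 19.6 and 83.1 ± 27.8 (SD, n = 5 each), and *Ccl2* fell by 0.66 on the log2 scale (adjusted p = 0.037, standard error 0.21). This call was lost when any 1 of 8 libraries was left out, all but WT replicate 2 and *Zfp36*ΔARE replicate 1, with log2 fold changes of -0.67 to -0.57 and adjusted p of 0.0503 to 0.085.

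*Ccl7*, next to *Ccl2*, encodes MCP-3, which acts on CCR2 and also on other CC receptors. It was at 173, 127, 154, 110 and 90.8 normalized counts in WT and 151, 77.9, 101, 139 and 133 in *Zfp36*ΔARE replicates 1 to 5, and the groups overlapped throughout. The difference of -0.12 on the log2 scale (adjusted p = 0.69, standard error 0.22) was smaller than its error and changed sign, to 0.14, without WT replicates 1 and 3.

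*Ccl8* encodes MCP-2 and had by far the most counts of the 8. WT libraries held 5471, 4866, 4508, 4039 and 3250 normalized counts and *Zfp36*ΔARE libraries 3430, 2646, 2552, 4064 and 4338. Only replicates 2 and 3 of the latter lay below the lowest WT library. The means, 4427 ± 840 and 3406 ± 808 (SD, n = 5 each), differed by -0.38 on the log2 scale (standard error 0.18, adjusted p = 0.12), which did not pass.

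*Ccl12* encodes MCP-5, a CCR2 ligand found in mice. Its counts were low, between 19 and 109 fragments per library. In normalized counts WT libraries held 100, 78.3, 70.8, 73.8 and 37.1, and *Zfp36*ΔARE libraries 40.5, 35.3, 34.0, 25.4 and 43.5. WT replicate 5 lay among the *Zfp36*ΔARE values, and the other 4 WT libraries were above all of them. The mean went from 72.1 ± 22.7 to 35.7 ± 6.95 (SD, n = 5 each), which is a fall of 2.01-fold (log2 fold change -1.01, adjusted p = 0.016, standard error 0.25). The fold was so close to 2 that leaving out WT replicate 1 (-0.86), WT replicate 2 (-0.98), WT replicate 4 (just short of 2-fold), *Zfp36*ΔARE replicate 3 (-0.99) or *Zfp36*ΔARE replicate 4 (-0.92) put it under that threshold, with an adjusted p still below 0.05 each time. Without WT replicates 1 and 3 together its adjusted p was 0.069 (log2 fold change -0.82).

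Of the eotaxins, *Ccl11* (Entrez 20292) encodes eotaxin-1, a product of dermal fibroblasts and other structural cells. WT libraries held 913, 760, 1137, 609 and 730 normalized counts. *Zfp36*ΔARE replicates 2 to 5 held 232, 367, 406 and 319, all below each WT library, whereas replicate 1 held 652, above the lowest WT library. The means were 830 ± 203 and 395 ± 158 (SD, n = 5 each), 2.09-fold apart (log2 fold change -1.07, adjusted p = 0.014, standard error 0.26). Without *Zfp36*ΔARE replicate 1 it was -1.33 (adjusted p = 0.011). Leaving out WT replicate 3 gave -0.93 and leaving out *Zfp36*ΔARE replicate 2 gave -0.92, under 2-fold in both with adjusted p of 0.029 and 0.031, and -0.82 (adjusted p = 0.081) without WT replicates 1 and 3 together.

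*Ccl24* encodes eotaxin-2, which is associated with macrophages. It was at 205, 176, 343, 160 and 148 normalized counts in WT and 121, 101, 85.7, 96.1 and 136 in *Zfp36*ΔARE libraries, so that every *Zfp36*ΔARE library was below every WT library. It fell 1.91-fold, just under 2-fold (log2 fold change -0.93, adjusted p = 0.016, standard error 0.24). It passed 2-fold without WT replicate 4 (-1.01), WT replicate 5 (-1.03) or *Zfp36*ΔARE replicate 5 (-1.03) and was -0.68 (adjusted p = 0.016) without WT replicate 3, the highest library. It was -0.58 (adjusted p = 0.045) without WT replicates 1 and 3, and -0.26 (adjusted p = 0.49) with the hair shaft score as a covariate.

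The receptors had the largest log2 fold changes of the 8. *Ccr2* (Entrez 12772), the marker of inflammatory monocytes, was at 1018, 1300, 1268, 843 and 644 normalized counts in WT and 419, 176, 269, 457 and 299 in *Zfp36*ΔARE replicates 1 to 5, with no overlap. The means, 1015 ± 280 and 324 ± 114 (SD, n = 5 each), were 3.13-fold apart (log2 fold change -1.65, adjusted p = 0.0053, standard error 0.27). It stayed between -1.80 and -1.49 with each library left out in turn and was -1.52 (adjusted p = 0.019) without WT replicates 1 and 3.

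*Ccr3* (Entrez 12771), the eotaxin receptor of eosinophils, rested on 22 to 112 fragments per library. WT libraries held 57.1, 88.0, 137, 80.6 and 41.3 normalized counts and *Zfp36*ΔARE libraries 34.5, 32.6, 25.3, 38.7 and 29.0. The lowest WT library was just above the highest *Zfp36*ΔARE library, and the WT libraries were spread over a wider range. It fell 2.51-fold (log2 fold change -1.33, adjusted p = 0.011, standard error 0.30), with a log2 fold change of -1.13 (adjusted p = 0.023) without WT replicates 1 and 3. *Ccl24*, *Ccr2* and *Ccr3* were thus the 3 of 8 genes whose groups did not overlap, which was so, with *Zfp36*ΔARE lower, for 11.9% of tested genes (23.1% in either direction).

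The position of *Zfp36*ΔARE replicate 1 differed between the members. Its level was inside the WT range in *Ccl2*, *Ccl7*, *Ccl8*, *Ccl11* and *Ccl12*, and below every WT library in *Ccl24*, *Ccr2* and *Ccr3*. Over all 2962 genes with lower levels in the knockin at an adjusted p below 0.05, this library was below every WT library in 91.8%, and among the 6 members lower by that test it was so in 3. Its *Ccl11* level was 1.97 times the mean of replicates 2 to 5 and its *Ccl2* level 1.83 times. The same ratio was 0.991 at the median of tested genes, and reached that of *Ccl11* in 1% of them and that of *Ccl2* in 1.3%. For the other members the ratio lay between 1.01 (*Ccl8*) and 1.40 (*Ccr2*). This was the *Zfp36*ΔARE library without Y-linked transcripts, and also the one with the least summed fibroblast marker RNA (3662 CPM against 7297 to 10110 in the other *Zfp36*ΔARE libraries and 6450 to 13470 in WT). Whether either has a part in these levels was not tested. When only the 6 libraries without Y-linked counts were fitted, 5 WT against this 1, log2 fold changes were -0.02 for *Ccl2*, 0.21 for *Ccl7*, -0.37 for *Ccl8*, -0.34 for *Ccl11*, -0.83 for *Ccl12*, -0.77 for *Ccl24*, -1.27 for *Ccr2* and -1.22 for *Ccr3*. The lone library is assumed there to vary as the WT libraries do, and neither these genes nor *Zfp36* passed (edgeR, 1 of the 8 at an unadjusted p below 0.05).

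**Figure D2:**
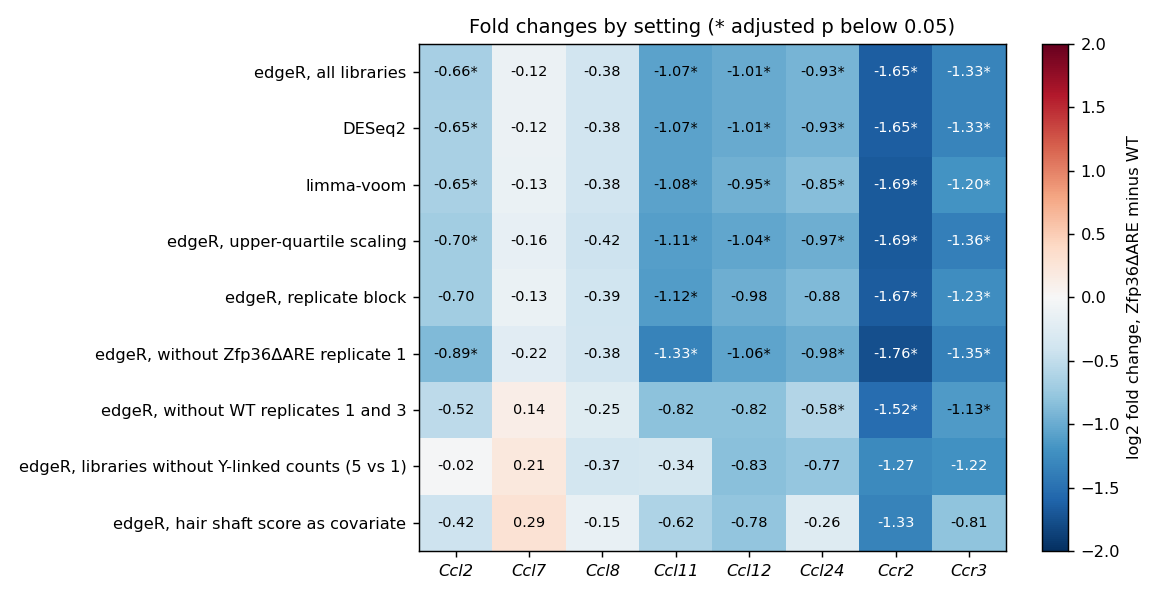
Log2 fold change, *Zfp36*ΔARE minus WT, of the 8 genes (columns) under 9 settings (rows), colored from blue (lower) to red (higher), with an asterisk for an adjusted p below 0.05. *Ccr2* stays at -1.27 or lower in all 9 but does not have an asterisk in every row. *Ccl2* goes from -0.89 without *Zfp36*ΔARE replicate 1 to -0.02 among libraries without Y-linked counts, and *Ccl7* changes sign. The macrophage score as a covariate, which gave -0.28 for *Ccr2*, is not among the 9.

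Levels were compared between genes as normalized counts per kb of the gene length in the count table. *Ccl8* led in WT skin at 8663 ± 1644 per kb (SD, n = 5), followed by *Ccl11* (773 ± 189) and *Ccr2* (283 ± 77.9), and these steps were apart in all libraries. *Ccl2* (164), *Ccl7* (164), *Ccl24* (160) and *Ccl12* (135) overlapped each other from one to the next, and *Ccr2* overlapped *Ccl2* only in range, being higher in 5 of 5 libraries. *Ccr3* was last at 24.7 ± 11.1 per kb, below all the others. In *Zfp36*ΔARE skin the order was *Ccl8* (6666 ± 1581), *Ccl11* (368 ± 147), *Ccl7* (151), *Ccl2* (103), *Ccr2* (90.3), *Ccl24* (83.6), *Ccl12* (66.7) and *Ccr3* (9.78). There too *Ccl8*, *Ccl11* and *Ccr3* were apart from their neighbours, and the levels from *Ccl7* to *Ccl12* overlapped from one to the next. *Ccr2* was thus in place 3 in WT and place 5 in *Zfp36*ΔARE skin. Of the summed ligand level per kb, *Ccl8* made up 86.1% ± 2.25 in WT and 89.4% ± 2.63 in *Zfp36*ΔARE skin, *Ccl11* 7.75% ± 1.64 and 5.02% ± 1.85, and each of the other 4 between 0.931% and 2.03% on average (SD, n = 5 each). These shares overlapped between genotypes for *Ccl8* and *Ccl11*.

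**Figure D3:**
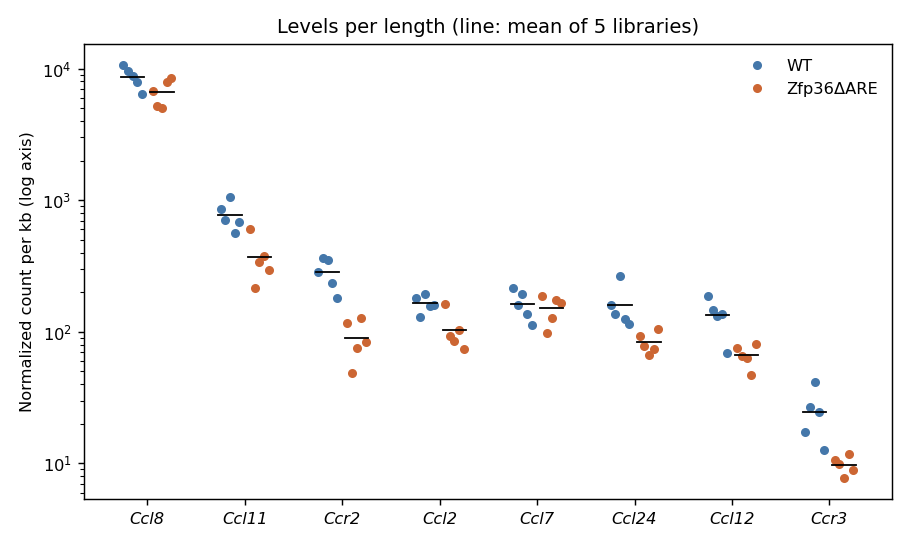
Normalized count per kb of gene length on a log axis, for the 8 genes in the order of their WT means, with 1 point per library and a line at the mean of 5. The mean of *Ccl8* is more than 10 times that of *Ccl11* in both genotypes. The largest step between the means of the genotypes is in *Ccr2*, from 283 to 90.3.

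Macrophages are a source of several of these ligands and *Ccr2* marks their monocyte precursors, so cell markers are given beside the members. Of 14 macrophage markers, 12 fell by more than 2-fold (median log2 fold change -1.33), among them *Lyz2* (-1.89), *Csf1r* (-1.50) and *Mrc1* (-1.40), whereas *Mertk* (-0.12) did not pass. Their summed level was 1164 to 2169 CPM in WT and 604 to 862 CPM in *Zfp36*ΔARE libraries. Of 12 monocyte markers, 11 were tested and 7 fell, including *F13a1* (-1.18), *Itgam* (-1.52) and *Plac8* (-1.66), while *Ly6c2*, a marker of the inflammatory monocytes that carry CCR2, was at 42.4 ± 6.55 and 52.4 ± 20.0 normalized counts (log2 fold change 0.29, adjusted p = 0.40). Fibroblast markers fell in 7 of 10 (median -0.69) but not *Col1a1* (-0.21, adjusted p = 0.64), and endothelial markers in 8 of 8 (median -0.98). The part of these cells in the chemokine levels was not tested.

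Each member was also set against the macrophage markers of its own library, as log2 of its normalized count minus the mean log2 normalized count of the 14 markers, with no pseudocount. The markers averaged 11.12 over the WT libraries and 9.95 over those of the knockin, a difference of -1.18. On this log2 scale *Ccl7* was at -4.39 to -4.02 in WT and -3.38 to -2.65 in *Zfp36*ΔARE libraries, and *Ccl8* at 0.78 to 1.16 and 1.52 to 1.94. Both were thus higher relative to macrophage markers in all 5 *Zfp36*ΔARE libraries than in any WT library, by 1.05 and 0.79 on average. The other 6 overlapped between genotypes, with differences of 0.46 for *Ccl2*, 0.29 for *Ccl24*, 0.21 for *Ccl12*, 0.05 for *Ccl11*, -0.06 for *Ccr3* and -0.50 for *Ccr2*. A pseudocount of 1 CPM, which shrinks changes of the scarce members more than those of the markers, moved *Ccr3* to 0.33 and *Ccl12* to 0.51. The marker score itself, as mean log2(CPM + 1), did not overlap, at 5.90 to 6.74 in WT and 5.01 to 5.56 in *Zfp36*ΔARE libraries. A gene that changes little between genotypes therefore rises on this ratio, as *Ccl7* and *Ccl8* did. The median log2 fold change of all tested genes was 0.0076, so a typical gene rises on it as well. The share of all tested genes that did so was not computed. These are descriptions without a test.

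**Figure D4:**
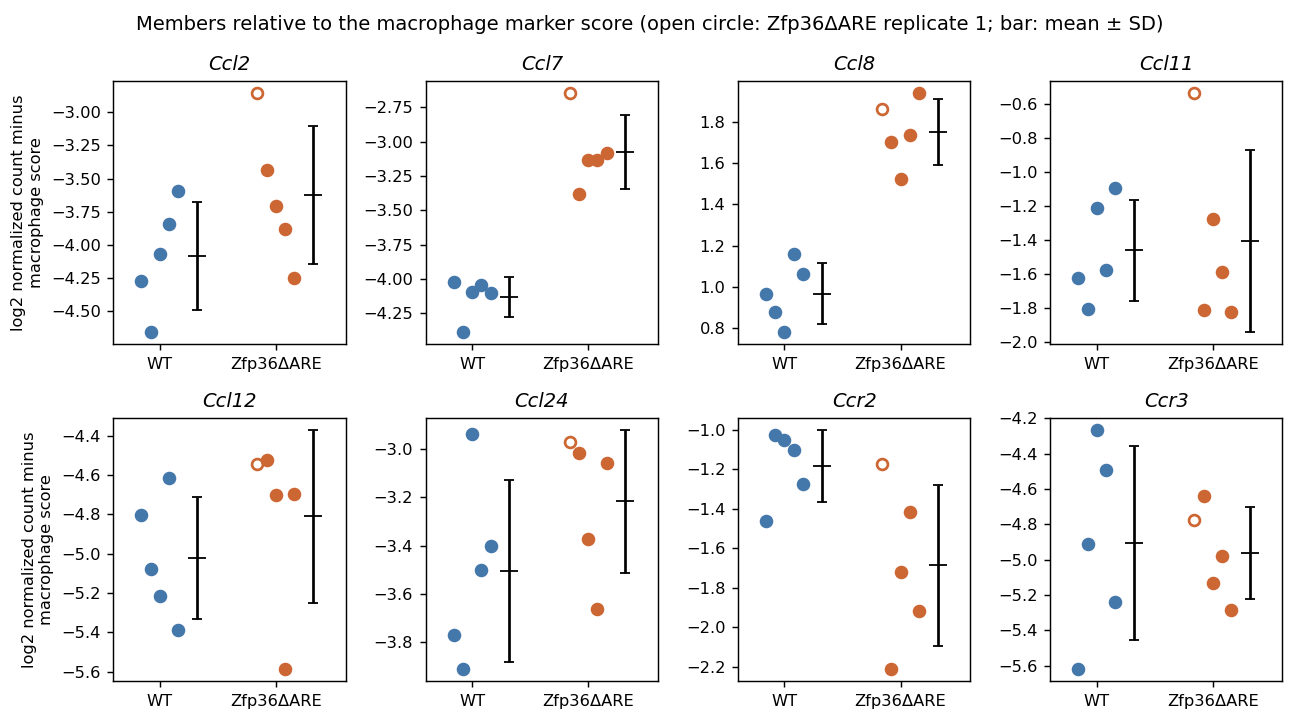
Log2 normalized count of each gene minus the mean log2 normalized count of 14 macrophage markers in the same library (vertical axes, log2 units, not starting at 0), with 1 point per library and the mean and SD as bars. *Zfp36*ΔARE libraries lie above all WT libraries for *Ccl7* (-3.38 to -2.65) and *Ccl8* (1.52 to 1.94), and the groups overlap in the other 6 genes. The markers themselves were lower in *Zfp36*ΔARE libraries, which raises each value there.

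Eosinophil genes gave a mixed picture at low levels. The eosinophil granule protein genes *Epx*, *Prg2* and *Prg3* had at most 1, 6 and 5 fragments in any library and were not tested. Of 10 eosinophil markers, 5 were tested and 4 fell. *Siglecf*, a surface lectin of eosinophils that some macrophages also carry, went from 53.8 ± 12.2 to 26.8 ± 10.9 normalized counts (SD, n = 5 each; adjusted p = 0.023). *Ear2*, a ribonuclease also made by monocytes and macrophages, fell by 1.76 on the log2 scale (adjusted p = 0.019). *Alox15* (-0.78, adjusted p = 0.049) and *Cd300lf* (-1.27, adjusted p = 0.024), both shared with macrophages, fell as well. *Il5ra*, the receptor chain for the eosinophil growth factor IL-5, was at 29.7 ± 13.9 and 16.7 ± 2.41 (-0.82, adjusted p = 0.060). Summed over the list, levels were 14.1 to 26.9 CPM in WT and 5.31 to 14.07 CPM in *Zfp36*ΔARE libraries.

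Other inflammatory CC chemokines that attract monocytes and macrophages fell as well. *Ccl9* went from 1835 ± 599 to 549 ± 180 normalized counts (log2 fold change -1.74, adjusted p = 0.0054), *Ccl6* from 3418 ± 1186 to 1149 ± 351 (-1.57, adjusted p = 0.0072) and *Ccl3* from 28.6 ± 7.37 to 9.76 ± 7.73 (-1.62, adjusted p = 0.032; SD, n = 5 each). The ligands *Ccl4* (-0.86) and *Ccl5* (-0.10), the receptor gene *Ccr1* (-0.56) and the receptor-like *Ccrl2* (-0.68) did not pass. Among atypical receptors, which bind chemokines without signalling for migration, 3 of 4 fell. *Ackr2*, which removes inflammatory CC chemokines including most of these ligands, went from 135 ± 47.0 to 51.5 ± 11.1 normalized counts (-1.39, adjusted p = 0.0068). *Ackr1*, which carries chemokines across venules, fell by 1.05 on the log2 scale and *Ackr3* by 0.67, whereas *Ackr4* was at -0.43 (adjusted p = 0.061).

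Downstream of the receptors, 9 of 14 tested signalling genes fell and 0 rose. Members expressed mainly in leukocytes were among them, such as *Pik3r5* (-1.25), *Pik3cg* (-1.20), *Dock2* (-1.17) and *Rac2* (-1.05), and so were the broadly expressed *Arrb1* (-0.62), an arrestin, and *Gnai2* (-0.35), an inhibitory G-protein subunit. The G-protein subunits *Gnb1* (0.10), *Gnai3* (-0.04) and *Gnb2* (-0.11) did not pass. Of the listed type 2 signals, which include cytokines, receptor chains and *Stat6*, *Il4*, *Il5*, *Il13* and *Il25* were too low to be tested (at most 25 fragments in any library). Among the 10 that were tested 5 fell, including *Il13ra1* (-0.60), *Csf2rb* (-0.99) and *Il1rl1*, the IL-33 receptor (-1.27). *Stat6* (-0.13, adjusted p = 0.12), *Il4ra* (-0.34, adjusted p = 0.18) and *Il33* (-0.84, adjusted p = 0.14) did not pass.

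**Figure D5:**
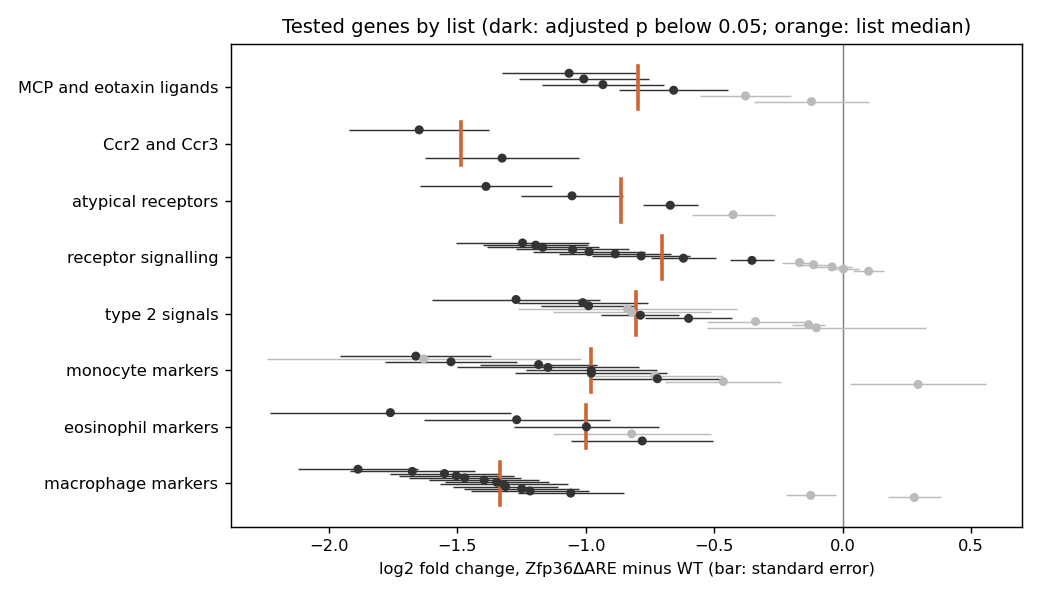
Log2 fold change, *Zfp36*ΔARE minus WT, of each tested gene in 8 lists, with standard errors as bars, dark points for an adjusted p below 0.05 and an orange line at the list's median. The medians run from -0.70 for receptor signalling to -1.49 for *Ccr2* and *Ccr3*, with the 6 MCP and eotaxin ligands at -0.80 and macrophage markers at -1.33.

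Beside the other chemokine groups, the MCP and eotaxin ligands had a median log2 fold change of -0.80 over 6 tested genes. It was -0.77 over 7 tested lymphocyte-homing CC ligands, of which 3 fell, *Ccl22* (-0.88), *Ccl19* (-1.15) and *Ccl20* (-1.37), and 1, *Ccl25*, rose by 0.57. Over 4 tested neutrophil-attracting CXC ligands, with at most 69 fragments in any library, it was -2.18, and 3 fell. The differences between these groups were not tested.

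Within genotypes the members did not vary as 1 block. As deviations of log2(CPM + 1) from the genotype means over 10 libraries, Pearson's r was 0.84 between *Ccl7* and *Ccl8*, 0.84 between *Ccl7* and *Ccr2*, 0.77 between *Ccl2* and *Ccl11* and 0.69 between *Ccl24* and *Ccr3*, but 0.04 between *Ccl2* and *Ccl8* and 0.06 between *Ccl2* and *Ccl12*. Among 13683 other genes that averaged 50 or more normalized counts, the deviations most like those of *Ccl8* were in *Apbb1ip* (r = 0.97), *Fcgr1* (0.96) and *Fcer1g* (0.95). For *Ccl12* they were *Ifit2* (0.94), *Ifi204* (0.93) and *Zfp959* (0.93), and for *Ccl7* *9530068E07Rik* (0.95), *Cd209d* (0.94) and *Ncf1* (0.94). *Ccl11* was closest to *Efcc1* (0.96), *Slc12a7* (0.94) and *Akr1c18* (0.93), *Ccl2* to *Rdh5* (0.96), *1810043H04Rik* (0.93) and *Igfals* (0.92), and *Ccl24* to *Prkg1* (0.98), *Tnfsf10* (0.96) and *Gsn* (0.96). *Ccr2* was closest to *Fam126a* (0.96), *Bmf* (0.95) and *Matk* (0.95), and *Ccr3* to *Ggta1* (0.94), *Prrc1* (0.92) and *Mef2a* (0.92). These values come from the same 10 libraries, share their depth and tissue makeup, and are the highest of many.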

How the data were processed

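Per the methods, the authors dropped reads of average quality below 20, used STAR 2.5.2b to map to mm10, and deposited raw fragment counts per gene from featureCounts (Subread 1.5.0-p1) with a gene length. Handling of multi-mapping reads and of strand is not given in the sources used here, so reads shared by similar chemokine genes are uncertain. Replicates were not pooled. Here 2 rows without a gene name (7.38e-05% of counts) were dropped. Genes were filtered with filterByExpr, scaled by TMM and tested with edgeR 4.0.16 (robust quasi-likelihood, genotype only) in R 4.3.3, with DESeq2 1.42.0 and limma-voom (limma 3.58.1) as alternatives. The standard error is the log2 fold change divided by the root of the F statistic. Called genes had an adjusted p under 0.05 and a fold over 2. The ratio to macrophage markers without a pseudocount was added after seeing the data. The script was tested on simulated data.

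The members, lists and alternatives were chosen with earlier results of these data known. Named genes were the members, their targeted regulator *Zfp36*, genes of the fixed lists (up to 4 with the most counts, or any gene of the lists of other inflammatory CC chemokines, atypical receptors and eosinophils), and the 3 nearest patterns of each member. *Arrb1*, *Ccl20*, *Dock2*, *Il1rl1*, *Il4*, *Il5*, *Il13*, *Il25*, *Il33*, *Ly6c2*, *Mertk*, *Pik3cg*, *Pik3r5* and *Rac2* fall outside that rule and were named after their values were seen. 3′-UTRs came from 1 GENCODE M21 transcript per gene (GRCm38), RefSeq-matched, then principal, then longest. Some genes of these lists, and counts that rest on them, are not reported here.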

Additional observations from a re-analysis of the deposited data

How the results depend on the processing

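The 6 members with an adjusted p under 0.05 kept their direction under each of 20 alternatives, as did *Ccl8*; the macrophage covariate is given apart. *Ccl7* changed sign, always within error, without WT replicate 1 or *Zfp36*ΔARE replicate 2 (leaving out each library gave -0.23 to 0.0039), without WT replicates 1 and 3 (0.14), among libraries without Y-linked counts (0.21) and with the hair shaft score as a covariate (0.29). No filter, upper-quartile scaling, DESeq2, its size factors in edgeR, and at least 10 counts in every library each called the same 4 members, *Ccl11*, *Ccl12*, *Ccr2* and *Ccr3*, and limma-voom 3 of them. Leaving out each library gave 3 to 5 members called and 5 or 6 with an adjusted p under 0.05, 839 to 1521 genes called (main 1292, 839 without WT replicate 3) and 3333 to 5349 genes with an adjusted p under 0.05 (main 5335).

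Same-numbered WT and *Zfp36*ΔARE libraries shared only a number, with correlations of their deviations from -0.19 to 0.09 and 0 of 5 closest to their own number. With the replicate block, 3 members were called, 3 instead of 6 had an adjusted p under 0.05 (*Ccl2* at 0.052, *Ccl12* at 0.054 and *Ccl24* at 0.058 did not), and 2740 genes did.

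Without WT replicates 1 and 3, 2 members and 526 genes were called, and 3 members and 2504 genes had an adjusted p under 0.05. Among libraries without Y-linked counts, 5 against 1, 0 members and 0 genes were called or had an adjusted p under 0.05 with edgeR (2572 genes at an unadjusted p under 0.05). With the hair shaft score as a covariate 0 members and 15 genes were called, and 0 and 32 had an adjusted p under 0.05 (edgeR, 3 members at an unadjusted p under 0.05, with *Ccr2* lowest at an adjusted p of 0.13). With the macrophage score as a covariate, chosen after seeing the data, 0 members and 0 genes were called or had an adjusted p under 0.05 (edgeR, 2 members and 193 genes at an unadjusted p under 0.05), *Zfp36* included (log2 fold change 1.30), and log2 fold changes were -0.63 for *Ccl2*, 1.03 for *Ccl7*, 0.64 for *Ccl8*, -0.40 for *Ccl11*, -0.09 for *Ccl12*, -0.02 for *Ccl24*, -0.28 for *Ccr2* and -0.32 for *Ccr3*. Neither the hair shaft score nor the macrophage score overlapped between genotypes, so these covariates and genotype cannot be told apart. The cause of these changes was not tested. Depth limits *Ccr3* and *Ccl12* most, with as few as 22 and 19 fragments in a library.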

Other observations

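In 18 groups of 5 libraries, the 8 members and *Zfp36* in each genotype, 0 held a library whose gap to the nearest other exceeded 0.71 of the group's range, where chance gives about 0.9. The *Zfp36*ΔARE replicate 1 levels of *Ccl2* and *Ccl11* were therefore not set apart by that measure.

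Markers of other cells that can make or respond to these chemokines also differed. Of 7 mast cell markers 6 fell, with *Cpa3* going from 2112 ± 1030 to 528 ± 94.6 normalized counts (SD, n = 5 each; adjusted p = 0.0044 from edgeR), while *Kit*, which melanocytes also express, rose by 0.29. Of 2 tested basophil markers, *Cd200r3* went from a mean of 40.6 to 17.9 normalized counts (adjusted p = 0.046) and *Mcpt8* was at 10.7 ± 4.26 and 29.2 ± 27.6 (adjusted p = 0.078). T cell markers had a median log2 fold change of 0.013 over 8 tested genes. The 1 that fell, *Thy1* (-0.94), is also counted among the fibroblast markers. Neutrophil markers had a median of -0.12 over 6 tested genes, of which 1 fell. Adipocyte and skeletal muscle markers fell in 7 and 9 of 10 (medians -1.06 and -1.51). Of 10 hair shaft markers 2 rose at an adjusted p under 0.05 (edgeR, median 2.29), while their score did not overlap between genotypes. It was 2.57 to 8.32 in WT and 9.10 to 10.43 in *Zfp36*ΔARE libraries. Of the inner root sheath markers 0 of 7 passed (median 1.36), and of the epidermis markers 0 of 7 (median -0.17, edgeR).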
